A study of Mus musculus with 12 samples.

Results

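The genes described here are Sox9 and Fgf9, which act when supporting cells of the fetal gonad commit to the testis pathway, and 6 genes listed with them. These 6 are Fgfr1, Fgfr2, Sox8, Sox10, Dmrt1 and Nedd9. Every probe of the array whose transcript accession maps to one of the 8 genes was taken, and each probe was treated separately. This gave 18 probes of 41174 on the array. A probe was tested where the 3 arrays of some group all lay well above background; 15 of the 18 met this, as did 25816 probes of the array as a whole. Sox8 has no tested probe, and Sox10 has 1 of its 2 probes tested.

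Gene expression was measured by 1-colour microarray in gonadal somatic cells of mouse embryos at embryonic day 11.5, with 3 single embryos in each of 4 groups. The groups were the 2 sexes of controls and of mutants. Controls were heterozygous and mutants homozygous for a mutant allele of Jmjd1a, whose current symbol is Kdm3a, so the controls also carry 1 mutant allele. All embryos carried a transgene that puts the surface protein CD271 under Nr5a1 control. Cells of dissociated gonads and mesonephroi were enriched for CD271 with magnetic beads, so the RNA comes from a bulk of cells that express the transgene, with whatever other cells the beads retained.

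SOX9 is the transcription factor that commits supporting cells to become Sertoli cells; in XY gonads it is switched on by SRY and then keeps its own gene active. FGF9 is a secreted growth factor made in the XY gonad; it signals through FGFR2, helps to keep Sox9 expressed and opposes WNT4, a signal of the ovarian pathway. SOX8 and SOX10 are the relatives of SOX9 in the SoxE family, DMRT1 is a transcription factor that maintains the male fate of supporting cells after birth, FGFR1 is a second FGF receptor, and NEDD9 is a docking protein of the Cas family that relays integrin signals.

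Levels are log2 values of the background-subtracted signal, set relative to the 75th percentile of each array, so they compare samples for 1 probe and not probes with each other. The 75th percentile was 143 to 299.5 signal units and 58.0% to 65.2% of spots were well above background. The most distant arrays in brightness were control male 1 and mutant female 1. The Kdm3a probe A_51_P116309 had levels of 2.70 to 3.03 in control males, 2.81 to 2.96 in control females, 0.70 to 1.04 in mutant males and 0.43 to 0.75 in mutant females, which separates the genotypes as labelled. The arrays lay on 3 slides, each scanned once. Mutant male 1 shared slide 1 with all control males, slide 2 carried the other 2 mutant males beside control females 1 and 2, and control female 3 was on slide 3 with every mutant female. Of the 8 markers of gonadal somatic cells, such as Nr5a1, Gata4 and Wt1, all 8 were well above background on every array.

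The promoter of Fgf9 is shown because Fgf9 and Sox9 were both lower in mutant males. Promoter entries were held for 4 of the 8 genes, Fgf9, Fgfr2, Nedd9 and Sox8. It comes from RefSeq on GRCm38.p6, plus strand, chr14:58072436-58072735, and runs from 250 bases before to 50 bases after the start that the RefSeq promoter table uses. This start lies inside the annotated gene, which begins further upstream, at position 58070671 of chromosome 14, so the window surrounds an internal start; capitals mark CpG pairs.
Fgf9 promoter: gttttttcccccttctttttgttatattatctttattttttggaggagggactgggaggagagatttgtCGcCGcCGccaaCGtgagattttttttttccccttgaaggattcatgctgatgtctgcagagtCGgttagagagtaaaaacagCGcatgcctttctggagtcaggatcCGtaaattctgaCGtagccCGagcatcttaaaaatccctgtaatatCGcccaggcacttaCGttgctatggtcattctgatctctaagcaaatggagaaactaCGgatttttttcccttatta
The window holds 12 CpG pairs, and 39.6% of the 32851 mouse promoter windows of this length hold at least as many. The SOX core motifs AACAAT and AACAAAG were searched on both strands; neither is in this window, while 10.7% of the windows hold the first and 5.85% the second. That says only that these letters are not in these 300 bases.

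Sox9 was highest in control males on each of its 3 probes. Probe A_52_P577484 read 0.25, 0.60 and 0.36 in control males 1 to 3, while mutant males 1 to 3 gave -0.68, -1.03 and -0.23. Among females, the controls gave -0.80, -1.04 and -1.05 in the same order and the mutants -0.51, -0.54 and -0.62. All control males lay above all other arrays, and mutant male 3 was the highest of the other 9. The share of all tested probes on which control males lie above every other array was not counted. In the order of the group means, mutant females came next, then mutant males, then control females; the mutant males overlapped both groups of females.

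Probe A_52_P214630, which is printed 10 times on each array, gave Sox9 levels of -0.01, 0.30 and -0.01 in the control males, while mutant males 1 to 3 gave -1.03, -1.21 and -0.72. The 3 control females had -1.48, -1.73 and -1.80, and the 3 mutant females -0.65, -0.95 and -1.03. The order of the groups was the same as on the first probe, and here the control females lay below every other array. The SD among its spots on 1 array was 0.03 to 0.15, with a median of 0.06, and 1 of 120 spots was left out as an outlier.

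The third Sox9 probe, A_51_P451606, was dim and was well above background on 10 of 12 arrays. The probe read -3.55, -2.81 and -3.29 in control males 1 to 3, while mutant males 1 to 3 gave -4.40, -4.95 and -4.21. Control females 1 to 3 gave -4.15, -4.95 and -5.73, and the mutant females -4.93, -4.76 and -5.14. The arrays not well above background were mutant male 2 and control female 3. Control males were again above all other arrays, while the other 3 groups overlapped.

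**Figure D1:**
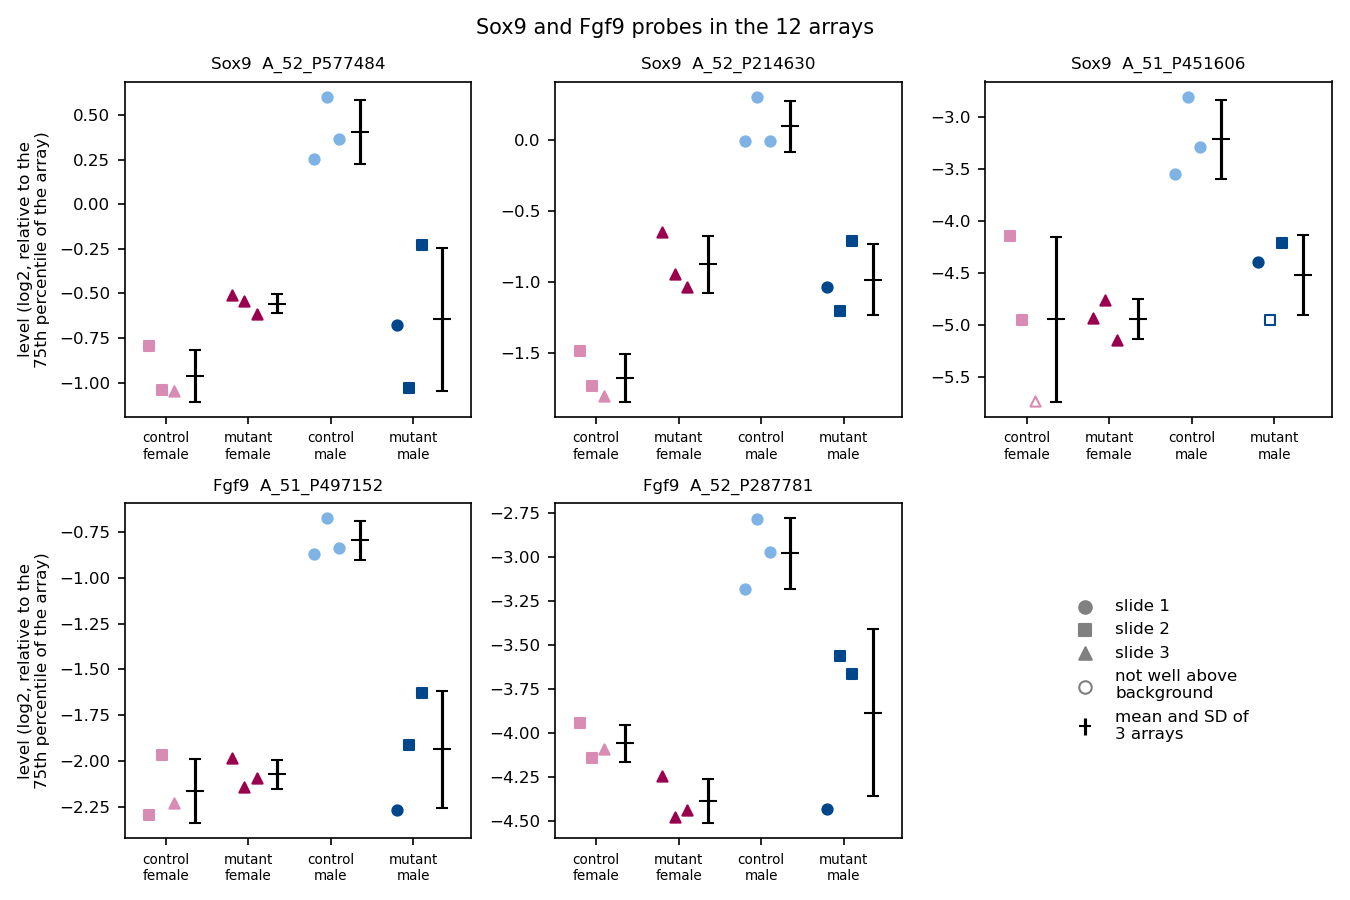
Levels (log2, relative to the 75th percentile of the array) of the 3 Sox9 and 2 Fgf9 probes by group. Each point is 1 array, its shape the slide, open points are not well above background, and bars are the mean and SD of 3 arrays. On all 5 probes the 3 control males lie above the other 9 arrays. The share of all tested probes with this separation was not counted. Control males lie above mutant males on 12.1% of them and above control females on 10.1%.

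Fgf9 was likewise highest in control males on both probes. Probe A_51_P497152 read -0.87, -0.68 and -0.84 in control males 1 to 3, while mutant males 1 to 3 gave -2.26, -1.91 and -1.63. Among females, the controls gave -2.29, -1.97 and -2.23 in the same order and the mutants -1.98, -2.14 and -2.09. The 3 groups other than control males overlapped. Mutant male 1 was in the range of the females and mutant male 3 was the highest array outside the control males.

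The dimmer Fgf9 probe, A_52_P287781, was well above background on all 12 arrays. The probe read -3.18, -2.79 and -2.97 in control males 1 to 3, while mutant males 1 to 3 gave -4.43, -3.56 and -3.67. The 3 control females had -3.94, -4.14 and -4.09, and the 3 mutant females -4.24, -4.48 and -4.43. Mutant males 2 and 3 lay between the control males and the females, and mutant male 1 lay among the mutant females.

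The comparison of mutant with control males asks how loss of Kdm3a function changes these genes in the sex in which the testis pathway starts. Sox9 and Fgf9 were both lower in mutant males, by about 2-fold. Of the 15 member probes tested, 3 passed an adjusted p of 0.05 in limma, all 3 lower in mutants; in this comparison 0.329% of all 25816 probes were called lower and 0.399% in either direction. Sox9 fell by 1.05 on the log2 scale on A_52_P577484 (SE 0.18, 95% interval -1.46 to -0.65, 2.07-fold, adjusted p = 0.0377 in limma). On A_52_P214630 it fell by 1.08 (SE 0.16, 2.11-fold, limma adjusted p = 0.0215). Fgf9 fell by 1.14 on A_51_P497152 (SE 0.16, 2.20-fold, limma adjusted p = 0.014).

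The dim probes of the same genes did not pass in this fit. The Sox9 probe A_51_P451606 differed by -1.30 ± 0.35 (log2, SE; limma adjusted p = 0.214) and the Fgf9 probe A_52_P287781 by -0.90 ± 0.21 (limma adjusted p = 0.134). On all 5 probes the 3 mutant males lay below the 3 control males; 12.1% of all tested probes separate in this direction. Over the 15 member probes the median difference was -0.20, against -0.05 over all tested probes.

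A lower level in a bulk of cells can mean fewer cells of a type or less RNA per cell, and these cannot be told apart here. Markers of mesonephric epithelium read higher in mutant males, though their sums overlapped. The summed level is the sum of the signals of the markers, each as a multiple of the 75th percentile of the array. It was 39.2 to 47.2 in control males and 46.9 to 57.4 in mutant males, with Ret not above background on any array. Of the 11 tested, 10 had a higher mean in mutant males and none was called (Cdh1 differed by 1.71 ± 0.34, limma adjusted p = 0.0755). Of 8 endothelial markers 7 had a higher mean in mutant males, with summed levels of 4.96 to 8.91 in control males and 4.69 to 9.83 in mutant males. Markers of 2 other lists had sums that did not overlap: cartilage-forming mesenchyme at 0.674 to 0.997 in control males and 1.14 to 1.54 in mutant males (3 of 3 tested higher, Matn1 and Snorc not above background on any array), and germ cells at 0.955 to 1.06 and 1.11 to 1.52 (4 of 5 tested higher, Dazl not above background on any array). The 4 erythroid and leukocyte markers tested all had a higher mean in mutant males, with sums of 19.7 to 156 and 16.3 to 197. Gonadal somatic markers had a higher mean in mutant males too, for 7 of 8. Their sums were 44.1 to 50.8 in control males and 46.8 to 61.3 in mutant males. None of the markers in these lists was called, and the part of these cells in the result was not tested.

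Within slide 1, mutant male 1 differed from the mean of the 3 control males by -1.09 and -1.13 on the Sox9 probes A_52_P577484 and A_52_P214630 and by -1.46 on the Fgf9 probe A_51_P497152. The dim Fgf9 probe A_52_P287781 differed by -1.45 there. A fit with slide as a block gives these same differences, because control males lay on slide 1 only. It therefore rests on mutant male 1 and is no separate check, and both Sox9 calls were lost in it. After normexp correction the Fgf9 call on A_51_P497152 was kept at a difference of -0.61. All 3 calls were lost without control male 1, without control male 2 and in a fit of these 2 groups alone; both Sox9 calls were lost without mutant male 1, without mutant male 2 and with no filter on dim probes, and A_52_P577484 also with array brightness as a covariate and without any other array except mutant male 3.

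In females, the question is whether the same loss acts without a Y chromosome. None of the 15 member probes was called in limma, while 0.294% of all tested probes were; 4 of the 15 had an unadjusted p under 0.05, against 10.7% of all probes. Sox9 read higher in mutant females on both bright probes, by 0.80 ± 0.16 on A_52_P214630 (1.74-fold, limma adjusted p = 0.108) and by 0.41 ± 0.18 on A_52_P577484 (1.33-fold, limma adjusted p = 0.464). On both, the 3 mutant females lay above the 3 control females, as on 5.46% of all probes. The dim Sox9 probe differed by 0.00 with a 95% interval of -0.77 to 0.77. Fgf9 differed by 0.09 on A_51_P497152 (95% interval -0.26 to 0.44) and by -0.33 on A_52_P287781 (-0.78 to 0.13), where mutant females lay below control females, as on 7.36% of all probes.

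Within slide 3 the mutant females differed from control female 3 by 0.92 and 0.49 on these Sox9 probes. Markers of cartilage-forming mesenchyme, in which SOX9 also acts, read higher in mutant females, though their sums overlapped. Their summed level was 0.89 to 1.74 in control females and 1.67 to 2.42 in mutant females. Matn1 and Snorc were not above background on any array. The 3 tested ones, among them Col2a1 (0.81 ± 0.28, limma adjusted p = 0.427), all had a higher mean in mutant females and none was called. The same markers also read higher in mutant males, where Sox9 was lower. Endothelial markers read lower in mutant females for 7 of 8 (sums 5.68 to 8.31 in control and 4.33 to 7.93 in mutant females). Neural crest markers had sums of 12.9 to 14.2 in control and 15.8 to 16.2 in mutant females, although 4 of 7 tested had a lower mean in the mutants. Gonadal somatic markers had a higher mean in mutant females for 8 of 8, and none was called. Their sums were 46.0 to 67.7 in control and 56.0 to 76.9 in mutant females. The part of these cells in the result was not tested.

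The difference of the mutant effects between the sexes was -1.87 ± 0.23 for Sox9 on A_52_P214630 (limma adjusted p = 0.158), the smallest p of all 25816 probes. It was -1.46 ± 0.26 on A_52_P577484 and -1.23 ± 0.23 for Fgf9 on A_51_P497152 (limma adjusted p = 0.579 for both), which rank 4 and 8. No probe passed in this comparison (0 of 15 members, 0% of all probes); 6 of 15 member probes had an unadjusted p under 0.05, against 3.86% of all.

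Controls of the 2 sexes give the sex difference of these genes at this stage. Sox9 and Fgf9 were higher in control males, and the 3 probes called were the same bright probes as in the mutant comparison, which shares the control males. Control males lay above control females on all 5 probes of the 2 genes, as on 10.1% of all probes. In limma 3 of 15 member probes were called, all higher in males, where 0.0813% of all tested probes were called higher and 0.163% in either direction. Sox9 was higher by 1.37 ± 0.18 on A_52_P577484 (2.59-fold, limma adjusted p = 0.0149) and by 1.77 ± 0.16 on A_52_P214630 (3.40-fold, limma adjusted p = 0.000702). Fgf9 was higher by 1.36 ± 0.16 on A_51_P497152 (2.58-fold, limma adjusted p = 0.00513).

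Markers of other cells differed in their means between control males and control females, but none was called and the sums given here overlapped. In control males 9 of 11 mesonephric markers had a lower mean (sums 43.1 to 49.8 in control females and 39.2 to 47.2 in control males), as had 7 of 8 endothelial markers (5.68 to 8.31 and 4.96 to 8.91) and 4 of 4 erythroid and leukocyte markers (36.3 to 466 and 19.7 to 156). Of 5 germ cell markers tested 4 had a higher mean in control males (sums 0.579 to 1.18 and 0.955 to 1.06). Among the 8 gonadal somatic markers, 6 also had a lower mean in control males and none was called (sums 46.0 to 67.7 and 44.1 to 50.8). The part of all these cells in the result was not tested.

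The dim probes read 1.73 ± 0.35 for Sox9 (limma adjusted p = 0.117) and 1.08 ± 0.21 for Fgf9 (limma adjusted p = 0.103). No slide holds control males together with control females. With slide as a block the 2 groups are joined only through mutant male 1 on slide 1, and all 3 calls were lost in that fit. After normexp correction the differences of Sox9 A_52_P214630 and Fgf9 A_51_P497152 were 1.17 and 0.79, both called. The Sox9 probe A_52_P577484 also lost its call in a fit of these 2 groups alone, with array brightness as a covariate, and when either of control females 2 and 3, or control male 2, was left out.

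In mutants no Sox9 or Fgf9 probe was called between the sexes, and the 95% intervals of the bright probes held 0. For Sox9 the male minus female difference was -0.09 on A_52_P577484 (95% interval -0.49 to 0.32) and -0.11 on A_52_P214630 (-0.47 to 0.26), while the dim probe A_51_P451606 gave 0.42 (-0.35 to 1.19). For Fgf9 it was 0.14 on A_51_P497152 (-0.22 to 0.49) and 0.50 on A_52_P287781 (0.05 to 0.95, limma adjusted p = 0.367). None of the 15 member probes was called in limma, against 0.108% of all tested probes; 3 had an unadjusted p under 0.05, against 12.7% of all.

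**Figure D2:**
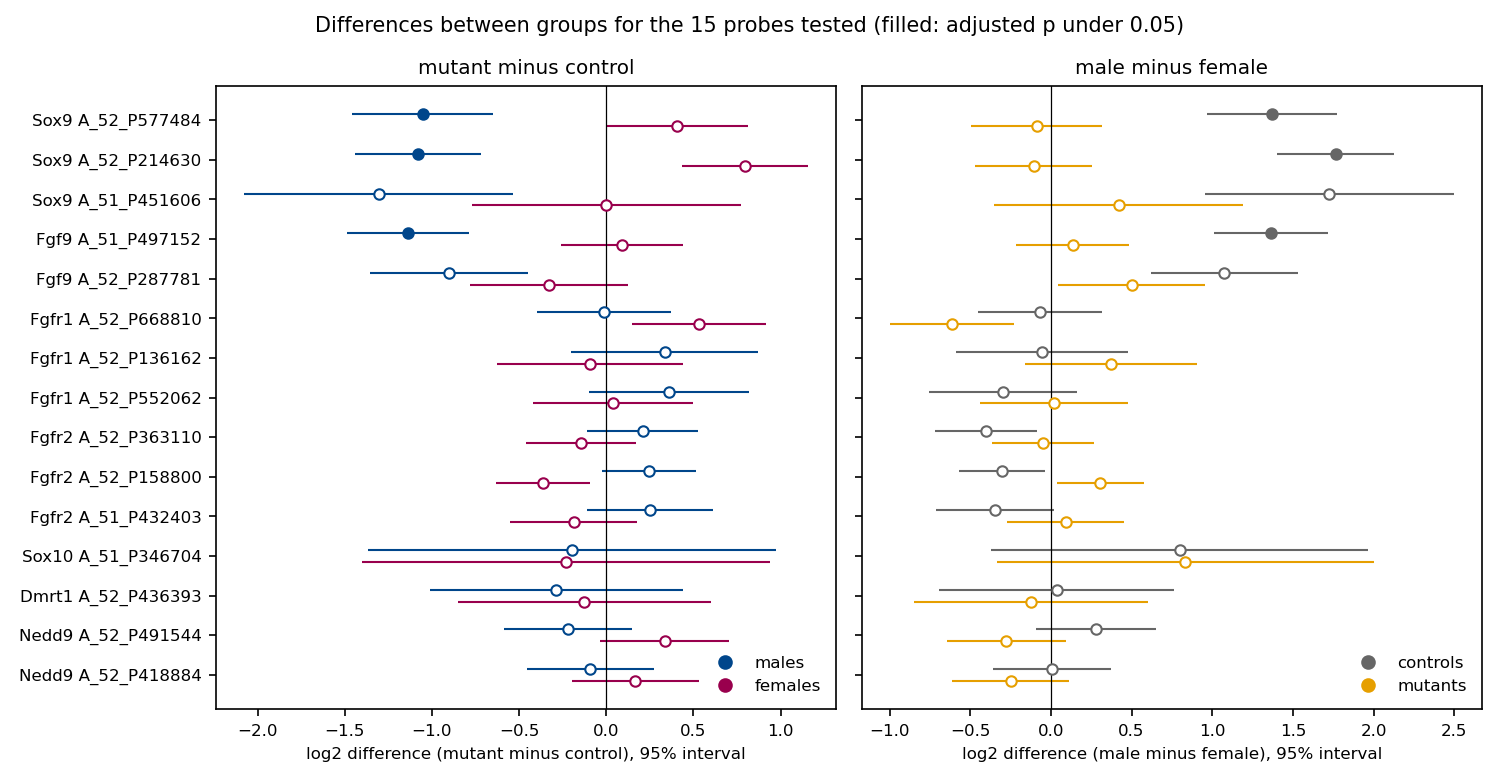
Log2 differences with 95% intervals for the 15 probes tested, mutant minus control in each sex (left) and male minus female in each genotype (right). Filled points passed an adjusted p of 0.05; these are 2 Sox9 probes and 1 Fgf9 probe, lower in mutant males and higher in control males.

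The receptors of FGF9 showed no called difference in any of the 5 comparisons. The Fgfr2 probe A_52_P363110 read -0.69, -0.71 and -0.52 in control males 1 to 3, while mutant males 1 to 3 gave -0.47, -0.47 and -0.34. Control females 1 to 3 gave -0.47, -0.22 and -0.02, and the mutant females -0.28, -0.24 and -0.62. Mutant males lay above control males without overlap (0.21 ± 0.14, limma adjusted p = 0.495), as did 8.07% of all probes, and control males lay below control females (-0.40 ± 0.14, limma adjusted p = 0.415), as did 5.79% of all.

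The Fgfr2 probe A_52_P158800 read -2.54, -2.62 and -2.37 in control males 1 to 3, while mutant males 1 to 3 gave -2.28, -2.09 and -2.42. Among females, the controls gave -2.28, -2.11 and -2.22 in the same order and the mutants -2.50, -2.52 and -2.68. Control males were below control females (-0.30 ± 0.12) and mutant males above mutant females (0.31 ± 0.12), both without overlap; 5.79% of all probes separate as the first and 15.1% as the second. Neither difference was called (limma adjusted p = 0.456 and 0.357), and the first was 0.08 after normexp background correction. The third Fgfr2 probe, A_51_P432403, with 10 spots on each array, differed by 0.25 ± 0.17 in males and -0.19 ± 0.17 in females, and its groups overlapped in both sexes.

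The Fgfr1 probe A_52_P668810 was highest in mutant females. It read -1.06, -1.02 and -1.17 there, while control females 1 to 3 gave -1.93, -1.55 and -1.36. The probe read -1.92, -1.57 and -1.56 in control males 1 to 3, while mutant males 1 to 3 gave -1.85, -1.83 and -1.42. Mutant females lay above every other array. The difference from control females was 0.53 ± 0.17 (limma adjusted p = 0.414), a direction in which 5.46% of all probes separate the females by genotype. Mutant males differed from mutant females by -0.61 ± 0.17 (limma adjusted p = 0.263), a direction in which 9.15% of all probes separate the mutants by sex. The other 2 Fgfr1 probes, A_52_P136162 and A_52_P552062, did not share this pattern: their differences between mutant and control females were -0.09 ± 0.24 and 0.04 ± 0.21.

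**Figure D3:**
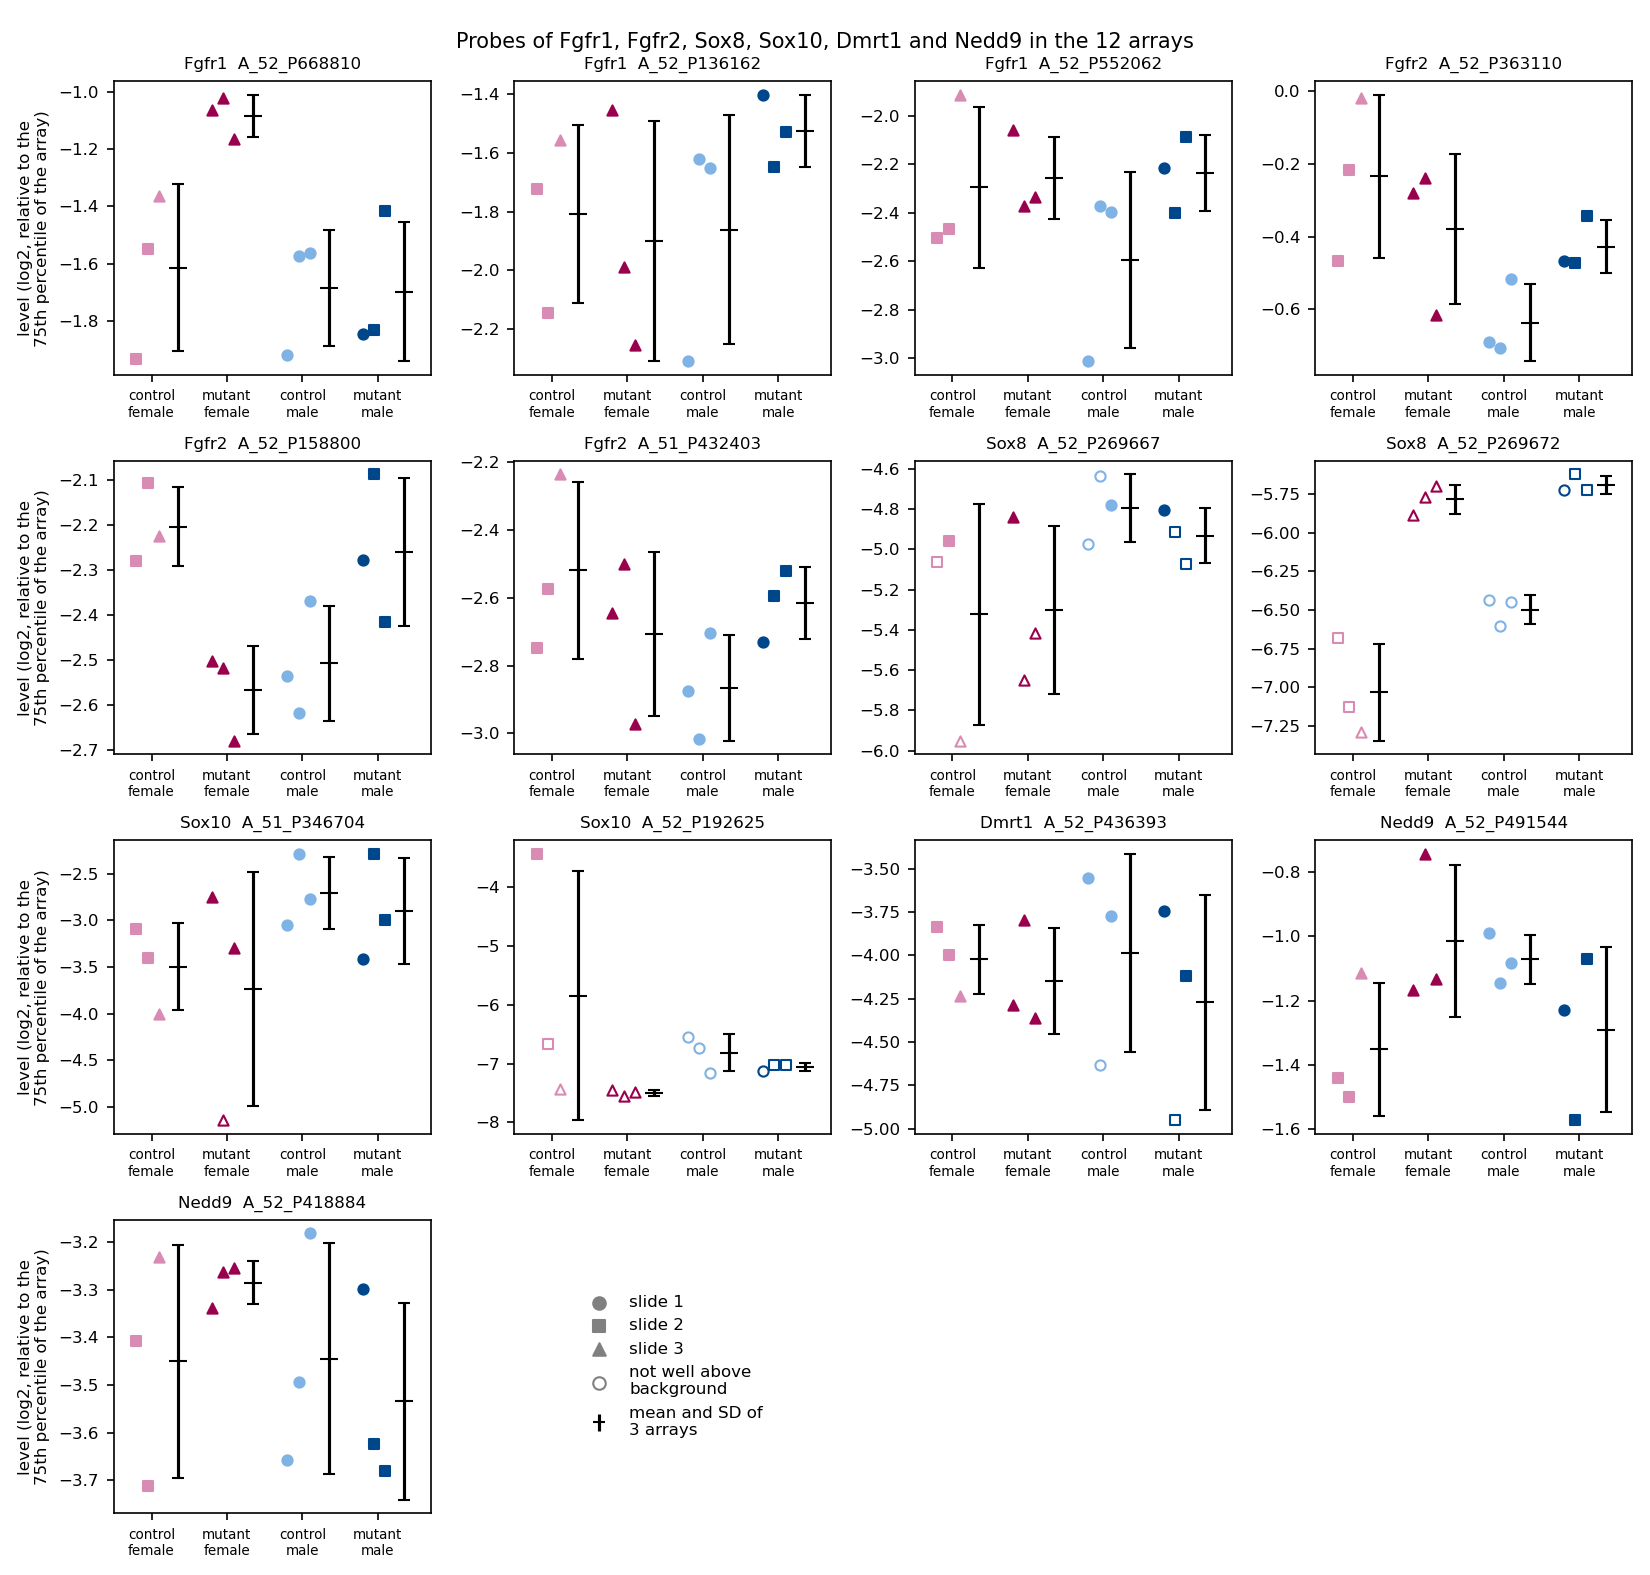
Levels (log2, relative to the 75th percentile of the array) of the 13 probes of Fgfr1, Fgfr2, Sox8, Sox10, Dmrt1 and Nedd9 by group. Each point is 1 array, its shape the slide, open points are not well above background, and bars are the mean and SD of 3 arrays; both Sox8 probes and 1 Sox10 probe are open on most arrays.

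Of the SoxE relatives of SOX9, Sox8 was at the limit of the measurement. Its probe A_52_P269667 was well above background on 4 arrays, 1 in each group, and A_52_P269672 on none. The Sox10 probe A_51_P346704 was well above background on 11 arrays. The probe read -3.05, -2.29 and -2.76 in control males 1 to 3, while mutant males 1 to 3 gave -3.42, -2.28 and -2.99. The 3 control females had -3.09, -3.40 and -4.01, and the 3 mutant females -2.75, -5.15 and -3.30. Control males lay above control females (0.80 ± 0.53, limma adjusted p = 0.539), as on 10.1% of all probes. Their nearest arrays read -3.05 and -3.09. Mutant female 2, the array not above background, was the lowest. SOX10 is also a factor of neural crest; of 10 neural crest markers, 6 to 8 were well above background on each array.

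The Dmrt1 probe was dim, and no group stood apart. A_52_P436393 was well above background on 10 arrays, the others being control male 2 and mutant male 2. Its group means were -3.99 ± 0.57 in control males, -4.27 ± 0.62 in mutant males, -4.02 ± 0.20 in control females and -4.15 ± 0.31 in mutant females (SD, n = 3). All 4 groups overlapped, and the mutant effect had a 95% interval of -1.01 to 0.44 in males and -0.85 to 0.60 in females.

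Nedd9 was measured on all 12 arrays by both probes. A_52_P491544 read -0.99, -1.14 and -1.08 in control males 1 to 3, while mutant males 1 to 3 gave -1.23, -1.57 and -1.07. Control females 1 to 3 gave -1.44, -1.50 and -1.11, and the mutant females -1.17, -0.74 and -1.13. The groups of each sex overlapped; the difference was -0.22 ± 0.17 in males and 0.34 ± 0.17 in females (limma adjusted p = 0.524 and 0.470). A_52_P418884 differed by -0.09 ± 0.17 and 0.17 ± 0.17.

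The wider pathway was described with 9 lists with 100 genes in all, each gene by its brightest probe; 97 are on the array and 70 were tested. Sry alone was called in any of the 5 comparisons. Sry was well above background on the 3 control male arrays only, and was at least 2.70-fold lower in mutant males; its probe passed the filter only through the control males, so its call is no independent test. Among the regulators and targets of SOX9, Ptgds, which encodes a prostaglandin D synthase downstream of SOX9, differed by -1.78 ± 0.41 in mutant males (limma adjusted p = 0.134). Cyp26b1, which degrades retinoic acid, differed by -0.40 ± 0.25 (limma adjusted p = 0.481). Amh, a later Sertoli cell product, was above background on 2 arrays and was not tested.

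Among the other FGF ligands 8 of 20 on the array were tested and none was called. Fgf12, an intracellular relative of the secreted FGFs, was well above background on the 3 mutant male arrays and on 1 of 3 control male arrays, so no size is given for its difference (limma adjusted p = 0.184). Fgf8 differed by 0.33 ± 0.20 and Fgf2 by -0.29 ± 0.17. Of 6 other receptors and co-receptors tested none was called, with Fgfr4 at 0.50 ± 0.30, the syndecan Sdc4 at 0.36 ± 0.19 and the decoy receptor Fgfrl1 at 0.33 ± 0.21 in males.

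The relay from receptor to MAP kinase was read by 12 genes. In mutant males 11 of the 12 had a higher mean and in mutant females 12 of 12, with medians of 0.25 and 0.21, and none was called. Over all tested probes 55.7% were lower in mutant males and 56.9% in mutant females. Other lists also read higher in mutant males, such as gonadal somatic cells (7 of 8) and mesonephric epithelium (10 of 11), while neural crest markers did so for 3 of 7. The adaptor Grb2 differed by 0.35 ± 0.17, the kinase Map2k2 by 0.43 ± 0.21 and the phosphatase Ptpn11 by 0.30 ± 0.16 in males. Feedback and target genes of FGF signalling had a median of 0.00 over 9 tested in males. The transcription factors Etv5 and Etv1 differed by -0.44 ± 0.23 and -0.41 ± 0.17 there, and the inhibitor Spred2 by 0.29 ± 0.25 (limma adjusted p = 0.444, 0.399 and 0.556).

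Among 11 other Sox genes tested 10 had a higher mean in mutant males and none was called, with Sox18 at 0.87 ± 0.37, Sox13 at 0.77 ± 0.37 and Sox11 at 0.32 ± 0.12. The 2 other Dmrt genes tested were Dmrta1 at -0.86 ± 0.21 (limma adjusted p = 0.17) and Dmrt2 at 0.00 ± 0.29. Of 8 partners of the NEDD9 scaffold none was called, with Efs at 0.45 ± 0.24, Sh2d3c at 0.41 ± 0.18 and Crk at -0.19 ± 0.12. Of 5 genes of the opposing ovarian signal tested none was called. Lef1 differed by 0.44 ± 0.25, Rspo1 by 0.31 ± 0.21 and Ctnnb1 by 0.14 ± 0.14 in males, and the ovarian factor Foxl2 was above background on no array.

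The profiles of Fgf9 and Sox9 were close on their brightest probes and less so on the others. Likeness was taken as the root mean square (RMS) difference of levels over the 12 arrays after each probe was centred on its own mean, among 12835 other named genes, and is a description, since the arrays share groups and slides. The RMS difference between the brightest probes of Sox9 and Fgf9 was 0.23, and 0 of the other genes were closer to Sox9. Against the 10-spot probe of Sox9 it was 0.31, again with 0 genes closer; with the dimmer Fgf9 probe it was 0.38 and 28 genes were closer to A_52_P577484. Counted from Fgf9, 1 gene was closer to A_51_P497152 than the brightest Sox9 probe, 6 were closer than the 10-spot probe and 855 closer than the dim one. From the dimmer Fgf9 probe, 292, 2583 and 3741 genes were closer than these 3 Sox9 probes.

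The other genes nearest to Sox9 were Socs2 (0.29), Popdc3 (0.30), Nr0b2 (0.30), Pla2g2f (0.32) and Mfsd2a (0.32), against a median RMS difference of 0.58 over all genes. Those nearest to Fgf9 were Aard (0.21), Nr0b2 (0.24), Tmco4 (0.28), Abcb4 (0.28) and Gstm6 (0.29), against a median of 0.60. Of these 9 genes Gstm6 was called. It was lower by 1.41 on the log2 scale in mutant males (limma adjusted p = 0.00113). It was higher by 1.30 in control males than in control females (limma adjusted p = 0.00319). The genes were picked for profiles like those of Sox9 and Fgf9 over the same arrays, so these calls are no independent test. In these comparisons 0.399% and 0.163% of all tested probes were called.

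**Figure D4:**
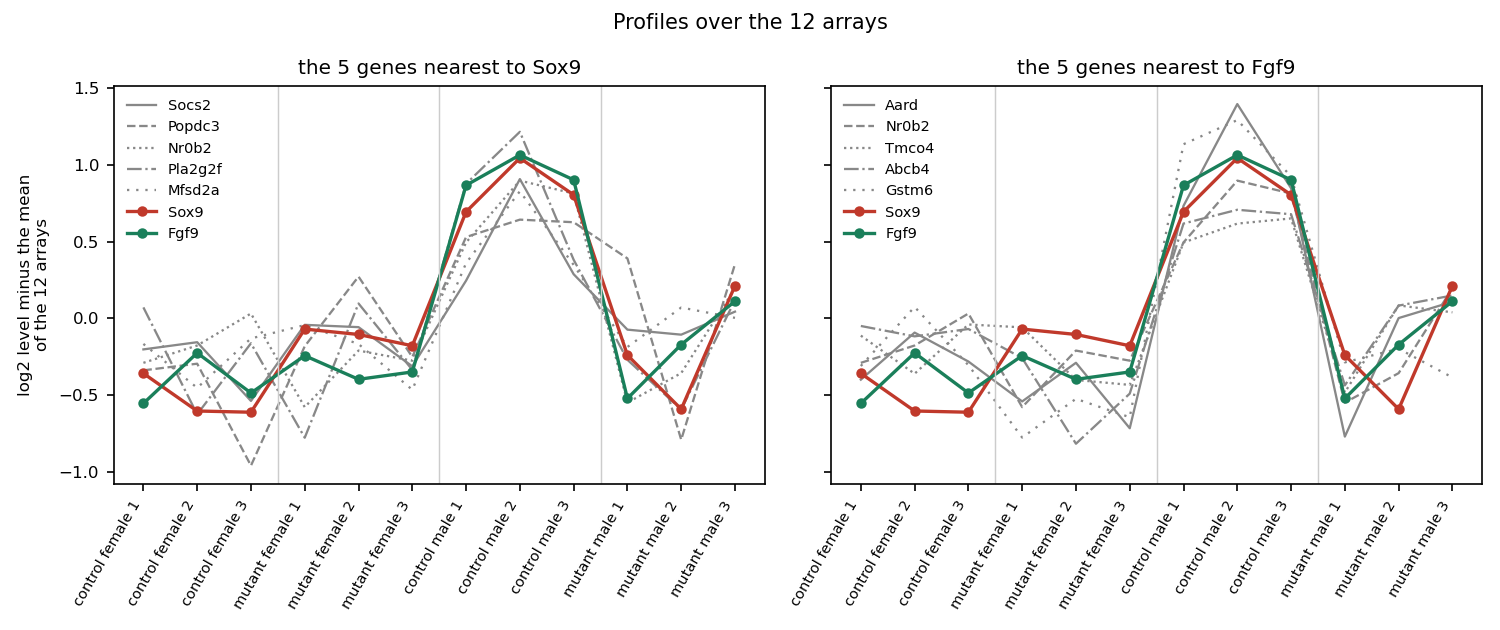
Levels (log2) minus the mean of the 12 arrays for the brightest probes of Sox9 and Fgf9 and the 5 other genes nearest to each, by array. Vertical lines part the 4 groups; the 3 highest points of both Sox9 and Fgf9 are the control males.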

How the data were processed

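Gonadal somatic cells of single mouse embryos were measured on 12 Agilent 1-colour arrays, 3 per group. Per the labels' protocols the RNA was linearly amplified and labelled with Cy3. Images were read with Agilent Feature Extraction, per the submitters' processing notes, in version 10.5.1.1 with array design 014868 (mm9), as the file headers state. The deposited intensity is the processed signal, which is linear and background-subtracted without scaling between arrays, per the file headers. The median signal, local background, background-subtracted signal and error estimate were deposited as intensities too. The deposited outlier and background flags, which are not intensities, were used as filters.

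The processed signal was taken to log2 and the 75th percentile over non-control spots was subtracted array by array. Spots flagged as outliers were left out and spots of 1 probe were averaged. A probe was called well above background where 50% or more of its spots were, and was tested where this held on all arrays of at least 1 group. Sox9 A_51_P451606, Sox10 A_51_P346704 and Dmrt1 passed that filter without being above background on all 12 arrays. Probes were named through RefSeq accessions (GRCm38.p6), which matched 27479 of 41174 probes; probe positions were not used here. limma 3.58.1 under R 4.3.3 fitted the 4 group means over all 12 arrays, with 8 residual degrees of freedom and Benjamini-Hochberg adjustment over 25816 probes at 0.05. The number of arrays limits the precision. The p-values measure the spread between arrays, each of 1 embryo, so embryo and array are not told apart. They do not account for the slides, which the groups share unevenly.

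The 5 contrasts compared mutants with controls within males and within females, males with females within controls and within mutants, and the mutant effects with each other. Alternatives were normexp background correction, quantile normalization, 2 other filters, 1 probe per gene, only the groups compared, slide or replicate number as a block, brightness as a covariate and leaving out each array. In the normexp correction, local backgrounds marked as outliers were set to the median of the array, a rule chosen after the data were seen. That correction also added an offset of 50 signal units before scaling, which can make differences of dim probes smaller. Under it the median difference of all tested probes moved from 0.04 to 0.13 between control males and females and from 0.05 to 0.14 between mutant males and females. The median mutant effect moved from -0.05 to -0.08 in males and from -0.05 to -0.10 in females. A change of sign under this correction can hold part of these shifts, which was not tested. The members, lists and tests were chosen with earlier results of these data known. Genes outside the members were named where called or among the 3 smallest p-values of a list in males, and by likeness to Sox9 and Fgf9. The fit was tested on simulated data with known changes.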

Additional observations from a re-analysis of the deposited data

Results flagged for a closer look

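On 2 of its 3 probes the mutant difference of Sox9 ran in opposite directions in the sexes. On A_52_P214630 and A_52_P577484 the 3 mutant males lay below the 3 control males and the 3 mutant females above the 3 control females, as on 12.1% and 5.46% of all probes. Neither female difference was called (limma adjusted p = 0.108 and 0.464), and the third probe, A_51_P451606, differed by 0.00 in females, or -0.19 after normexp correction. The difference of the mutant effects was -1.87 and -1.46 on the log2 scale (limma adjusted p = 0.158 and 0.579), so the test of the difference did not pass on either probe.

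The sex difference of Fgfr2 on A_52_P158800 also ran in opposite directions, lower in control males and higher in mutant males without overlap, as on 5.79% and 15.1% of all probes. Neither was called (limma adjusted p = 0.456 and 0.357), and after normexp correction the control difference was 0.08, so that both had the same sign. The median difference of all tested probes between control males and females was 0.13 under that correction, against 0.04 in the main fit. The difference of the differences was 0.61 ± 0.17 (limma adjusted p = 1, unadjusted p = 0.00469). The other Fgfr2 probes read 0.35 ± 0.20 and 0.44 ± 0.23 for the same quantity.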

How the results depend on the processing

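The 3 member probes called in males became 1 with no filter on dim probes, 1 with the replicate block and 0 in a fit of these groups alone, and 0 to 3 when 1 array was left out (0 without control male 1 or 2, 1 without mutant male 1 or 2). In females the 0 became 1 with no filter, through the Sox8 probe A_52_P269672, which is above background on no array. The 3 called between control males and females became 0 with slide as a block. None of the 6 called values changed sign. Uncalled values changed sign after normexp correction for Sox9 A_51_P451606 (-0.192) and Fgf9 A_51_P497152 (-0.0308) in females, Fgfr2 A_52_P158800 in controls (0.0750) and Sox9 A_52_P577484 between mutants (0.0153), which was 0.00686 with brightness as a covariate; slide as a block gave -0.827 for Sox9 A_51_P451606 between mutants. With 1 array left out the ranges were -0.394 to 0.398 for Sox9 A_51_P451606 in females and, between mutants, -0.242 to 0.00488 for Sox9 A_52_P214630, -0.297 to 0.104 for Sox9 A_52_P577484 and -0.0166 to 0.2996 for Fgf9 A_51_P497152. The causes were not tested. Over all 75 values of 15 probes and 5 contrasts, 44 of 605 changed sign under other settings and 47 of 900 with an array left out. No steady pairing by replicate number was seen: deviations of same-numbered arrays correlated at -0.54 to 0.43 and 4 of 12 pairs were over 0.1. These values cannot exclude pairing, since the groups also share slides unevenly. The replicate block left Fgf9 A_51_P497152 called in males (limma adjusted p = 0.0285) and ended both Sox9 calls there (0.0579 and 0.0976) and that of Sox9 A_52_P577484 between control males and females (0.0571). Probes near background, such as those of Sox8, Dmrt1 and the dim Sox9 probe, limit what can be read.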

Other observations

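The Sox8 probe A_52_P269672 was above background on no array, and its processed signals parted by genotype: 1.65 to 2.53 signal units in the 3 control males, 1.79 to 1.84 in the 3 control females, 3.56 to 4.18 in the 3 mutant males and 5.07 to 5.36 in the 3 mutant females. On 5 of the 6 control arrays the processed signal equalled its own error estimate within 1%, so there it is read as a floor value of the software and not as a measured signal; this held on no mutant array. Before that floor the background-subtracted signals were -0.774 to 1.01 units in control females, 0.532 to 2.49 in control males, 3.52 to 4.10 in mutant males and 4.97 to 5.18 in mutant females. No fold is given, since both genotypes are below background. How many other probes this dim part by genotype was not counted, and whether the signal comes from Sox8 was not tested. Mutant male 1 shares slide 1 with the control males and control female 3 shares slide 3 with the mutant females. The Sox10 probe A_52_P192625 read 17.4 signal units on the control female 1 array, where it was above background, and 1.35 to 2.45 on the other 11 arrays, 10 of which were at that floor; the other Sox10 probe gave no such value on that array.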
